A study of Homo sapiens with 12 samples.

Results

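The translation initiation factors are the proteins that bring the initiator tRNA, the mRNA and the ribosomal subunits together at a start codon. Their genes were taken as the rows of the deposited table whose symbol begins with EIF1, EIF2, EIF3, EIF4, EIF5 or EIF6. EIF2AK kinases, antisense genes and symbols ending in P and digits were left out, as were genes whose mean level in the 12 libraries was below 1 TPM. The table does not name its unit, and TPM was inferred from columns that each sum to about the same round total without whole-read steps. TPM is a transcript level corrected for length: it is relative to all transcripts of a library, whose TPM sum to the same total. The rule found 47 genes of the 60902 in the table, where 13854 genes in all reached that mean. Among the members, 46 encode proteins and 1, EIF3J-DT, is a non-coding RNA that starts beside EIF3J on the other strand. The 3 genes just outside the limit were EIF5AL1, with a mean of 0.502 TPM, and EIF2S3B and EIF4E1B, both listed at 0, while the 3 just inside were EIF4E3 (2.62 TPM), EIF5A2 (3.33 TPM) and EIF3J-DT (4.99 TPM).

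RNA was sequenced from A549/DDP, human lung adenocarcinoma cells (A549) made resistant to cisplatin, in 4 groups of 3 libraries. CON cells stayed in RPMI medium with serum and glucose. TRF cells, a culture model of time-restricted feeding, had that medium for 6 h of each 24 h cycle and medium without serum and glucose for the other 18 h. DDP cells received cisplatin, a platinum drug that crosslinks DNA, and TRF_DDP cells received both treatments. All 4 groups are the same line, whose resistance is kept by culture in DDP. A caption of the study gives a dose and duration for TRF combined with DDP, but whether they apply to the sequenced libraries is not clear. Whether the drug was withdrawn before the experiment, and whether the line is 1 clone, were not found in the labels or the methods, so earlier exposure of CON and TRF cells is unknown. Nor do they say whether RNA was taken in the fed or the unfed hours of the cycle. Cells were washed with PBS when the medium was switched. Effects of washing and of the hour of harvest cannot be told apart from those of the cycle.

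Initiation starts when eIF2, charged with GTP and the initiator tRNA, joins the small ribosomal subunit together with eIF1, eIF1A, eIF3 and eIF5. The cap-binding eIF4E, the scaffold eIF4G and the helicase eIF4A with its cofactors eIF4B and eIF4H load this complex on a capped mRNA, which it scans for a start codon. eIF5 then triggers GTP hydrolysis on eIF2, eIF5B joins the large subunit, and eIF2B recharges eIF2 for the next round. Cells short of amino acids, glucose or growth factors reduce initiation through phosphorylation of eIF2 and through 4E-BP proteins that sequester eIF4E. Both act on proteins, which RNA levels do not measure.

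Pearson correlations of log2(TPM + 1) were 0.979 to 0.983 within groups and 0.915 to 0.979 between them. Mitochondrially encoded genes took 10.7%, 9.92%, 7.97% and 8.46% of the TPM for CON, DDP, TRF and TRF_DDP, with 1 TRF library at 6.37%. Of 9 epithelial and A549 markers 6 reached a mean of 1 TPM, among them the keratins KRT7, KRT8 and KRT18, while EPCAM, CDH1 and KRT19 did not. None of 8 leukocyte and 5 endothelial markers reached it, nor did 6 of 7 fibroblast markers, the exception being COL1A1 at 12.4 TPM. The number of reads behind a TPM value is unknown, so no counting interval can be given. In bulk RNA, fewer cells of a kind and less RNA per cell cannot be told apart, and no label says whether the 3 libraries of a group came from separate cultures. The caption of the study's transcriptome results, which also covers qPCR, calls the replicates biological without saying what was repeated, so the p-values measure the spread between these libraries, part of which may be technical.

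The members spanned levels from 2.62 to 1356 TPM, with 24 over 100 TPM, 20 between 10 and 100 and 3 below 10. EIF4A1, the main cap-complex helicase, was the highest at a mean of 1356 TPM and exceeded every other member in 12 of 12 libraries. EIF5A (978 TPM), a factor for elongation and termination despite its name, and EIF1 (945 TPM), which guards start codon choice, followed, and their order differed between libraries, with EIF5A above EIF1 in 6 of 12. EIF3K and EIF3F, both eIF3 subunits, came next at 479 and 463 TPM, again with EIF3K higher in 6 of 12 libraries. The median coefficient of variation within a group was 4.66% over the members. Together the members held 9428 ± 23.4 TPM for CON (SD, n = 3), 9026 ± 47.0 for DDP, 10772 ± 130 for TRF and 11079 ± 137 for TRF_DDP, which is 0.943%, 0.903%, 1.08% and 1.11% of all TPM. The lowest TRF library, at 10646 TPM, lay above the highest CON library, at 9446 TPM, and the lowest TRF_DDP library, at 10949 TPM, above the highest DDP library, at 9072 TPM. These sums weigh the members with the highest levels most. From CON to TRF, the group means went from 1250 to 1549 TPM for EIF4A1, 845 to 1252 for EIF5A and 841 to 1032 for EIF1. None of these members was called in that comparison, described below.

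Differences below are in log2(TPM + 1), from a limma model of all 13854 genes, and a gene was called at a Benjamini-Hochberg adjusted p under 0.05 with a fold over 1.5. TRF against CON asks how cells in the feeding cycle, at the unstated hour of harvest, differ from cells in normal medium without the drug. In it, 9 members rose (EIF5, EIF2S1, EIF1AD, EIF3J, EIF6, EIF2B1, EIF2B3, EIF3I and EIF4E2) and 2 fell (EIF4B and EIF4G3), against 8.41% and 17.1% of all genes tested called higher and lower. In either direction 25.6% of all genes were called. With no fold limit, 24 members were higher and 6 lower at an adjusted p under 0.05, against 23.7% and 37% of all genes, and the libraries of the groups did not overlap for 26 higher and 6 lower members, against 25.7% and 38.8%. In TRF_DDP against DDP, the same question in the presence of the drug, 9 members rose and 2 fell, against 11.8% and 21.4% of all genes (33.2% in either direction). With no fold limit the counts were 29 higher and 7 lower, against 27% and 38.4%, and 29 higher and 8 lower members did not overlap between the groups, against 29.2% and 41%. The members called lower were again EIF4B and EIF4G3, and the members called higher were EIF5, EIF3J, EIF2B1, EIF1AD, EIF2S1, EIF1AY, EIF1AX, EIF3I and EIF2S2. The median difference of the members was 0.24 in TRF against CON and 0.36 in TRF_DDP against DDP, where the median over all genes was -0.11 and -0.10. Scaling the libraries by a trimmed mean of log-ratios moved those all-gene medians to -0.01 and 0.00 and the members' medians to 0.35 and 0.48. Quantile normalization moved the all-gene medians to 0.00 and 0.01 and the members' to 0.21 and 0.32, and leaving out mitochondrially encoded genes gave 0.20 and 0.34 for the members. With trimmed-mean scaling, 18 members were called higher in TRF_DDP against DDP in place of 9, the added ones being EIF1, EIF2B2, EIF3B, EIF3D, EIF3M, EIF4A1, EIF4A2, EIF4G2 and EIF6, and 2 were called lower. Calls over all 13854 genes moved as well under that scaling, to 2122 higher and 2390 lower from 1631 and 2968.

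The members lie on 18 chromosomes. In GRCh38 with the GENCODE v29 gene models, which are whole genes with exons and introns, EIF5 (ENSG00000100664, chr14:103333544-103345025, plus strand) and EIF2S1 (ENSG00000134001, chr14:67359997-67386516, plus strand) are both on chromosome 14. EIF3J (ENSG00000104131, chr15:44537057-44563029, plus strand) and EIF2B1 (ENSG00000111361, chr12:123620406-123633766, minus strand) are on 15 and 12. EIF4B (ENSG00000063046, chr12:53006158-53042209, plus strand) shares chromosome 12 with EIF2B1, EIF4G3 (ENSG00000075151, chr1:20806292-21176888, minus strand) is on 1 and EIF3L (ENSG00000100129, chr22:37848868-37889407, plus strand) on 22.

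**Figure D1:**
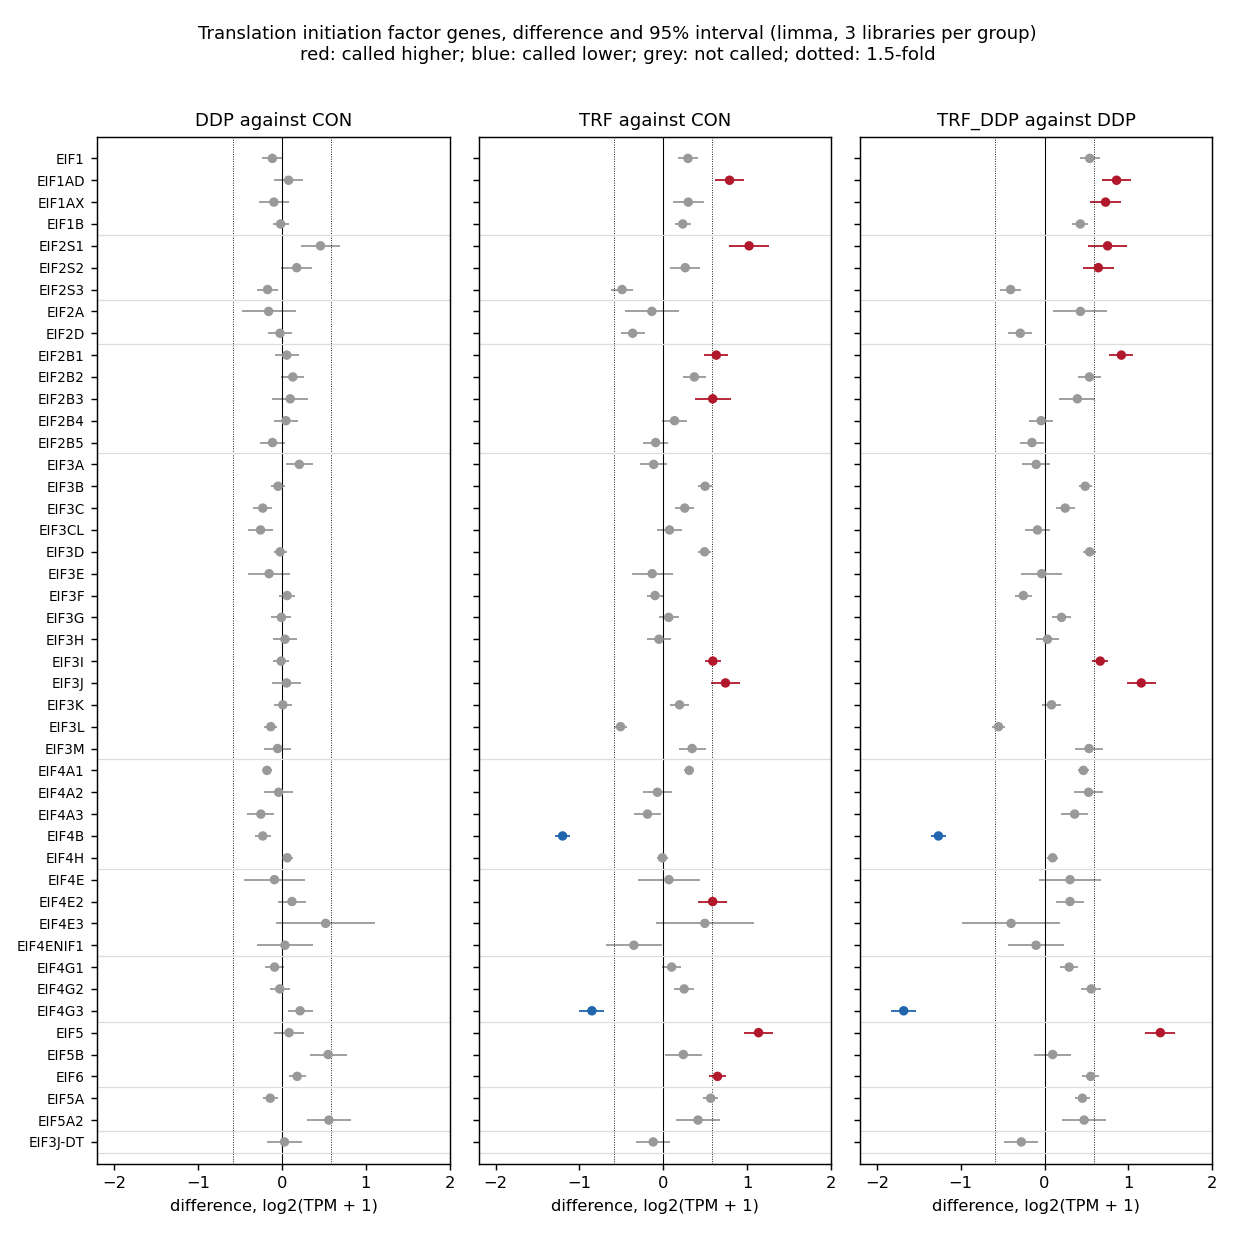
Difference in log2(TPM + 1) for each member (points) with its 95% interval (lines) in DDP against CON, TRF against CON and TRF_DDP against DDP, grouped by factor from eIF1 at the top to eIF5A. Red and blue mark members called higher and lower, and dotted lines mark a fold of 1.5; no member is coloured in the DDP panel, while EIF4B and EIF4G3 are blue and EIF5 is the farthest to the right in both TRF panels. EIF1AY is not drawn.

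EIF1 and its near copy EIF1B encode eIF1, EIF1AX and EIF1AY encode eIF1A, which together keep the scanning ribosome open, and EIF1AD encodes a nuclear protein with an eIF1A-like domain. EIF1AD was at 24.2, 28.9 and 25.6 TPM for CON, 26.1, 28.2 and 28.8 for DDP, 45.6, 51.0 and 41.7 for TRF and 52.2, 50.2 and 50.6 for TRF_DDP. Every library with TRF lay above every library without it. EIF1AD rose in TRF against CON by 0.79 (95% interval 0.62 to 0.96; limma, adjusted p = 3.24e-06) and in TRF_DDP against DDP by 0.86 (0.69 to 1.03; limma, adjusted p = 1.04e-06). It overlaps BANF1, which lies on the opposite strand with a mean of 382 TPM, and the sources do not say whether counting used strand, so reads of both could be mixed. EIF1AX was at 20.0, 22.6 and 21.6 TPM for CON, 19.2, 22.0 and 18.7 for DDP, 24.0, 29.2 and 26.5 for TRF and 32.5, 36.0 and 32.5 for TRF_DDP. It rose in TRF_DDP against DDP by 0.73 (limma, adjusted p = 8.11e-06) and differed by 0.30 in TRF against CON, under the fold limit. EIF1AY was called higher in TRF_DDP against DDP too, and since EIF1AX and EIF1AY are nearly identical, the sharing of reads between them is uncertain.

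The eIF2 trimer carries the initiator tRNA: EIF2S1 encodes the alpha subunit that stress kinases phosphorylate, EIF2S2 the beta subunit and EIF2S3 the gamma subunit that binds GTP and tRNA. EIF2S1 was at 63.1, 50.6 and 68.2 TPM for CON, 86.7, 84.9 and 78.0 for DDP, 131, 127 and 113 for TRF and 124, 150 and 149 for TRF_DDP. EIF2S2 was at 81.1, 76.6 and 72.7 TPM for CON, 82.9, 95 and 83.0 for DDP, 83.8, 106 and 88.5 for TRF and 129, 141 and 138 for TRF_DDP. EIF2S3 was at 105, 104 and 97.4 TPM for CON, 87.6, 97.1 and 87.1 for DDP, 71.8, 77.3 and 68.1 for TRF and 71.1, 67.7 and 65.7 for TRF_DDP. By group mean, alpha and beta were highest in TRF_DDP, where gamma was lowest. EIF2S1 rose in TRF against CON by 1.02 (95% interval 0.79 to 1.26; limma, adjusted p = 6.11e-06) and in TRF_DDP against DDP by 0.75 (limma, adjusted p = 5.95e-05). EIF2S2 rose in TRF_DDP against DDP by 0.64 (limma, adjusted p = 2.28e-05), and its difference in TRF against CON was 0.26. EIF2S3 was not called, with differences of -0.49 in TRF against CON (limma, adjusted p = 1.63e-05), -0.40 in TRF_DDP against DDP and -0.58 in TRF_DDP against CON. The last was called lower under quantile normalization (-0.64), without mitochondrially encoded genes (-0.61), without CON replicate 3 (-0.61) and without TRF_DDP replicate 1 (-0.61).

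Within a library, the ratio of EIF2S1 to EIF2S3 went from 0.596 ± 0.108 for CON (SD, n = 3) and 0.920 ± 0.0617 for DDP to 1.71 ± 0.0992 for TRF and 2.08 ± 0.285 for TRF_DDP. The ratio of EIF2S2 to EIF2S3 was 0.752 ± 0.0207, 0.959 ± 0.0169, 1.28 ± 0.102 and 2.00 ± 0.165 in the same order. The 4 groups did not overlap in EIF2S2 to EIF2S3, and TRF and TRF_DDP overlapped in EIF2S1 to EIF2S3 (1.65 to 1.82 and 1.75 to 2.27). A ratio within a library does not depend on how libraries are scaled to each other. The pairs used for ratios here and below were not fixed in advance. Each ratio restates the levels of its members and is no separate result. EIF2S1 and EIF2S2 overlap ATP6V1D (62.1 TPM) and RALY (119 TPM) on the opposite strand, with the uncertainty given for EIF1AD. Other members share it, among them EIF4ENIF1, which overlaps DRG1 (44.7 TPM), and EIF2A, EIF2B1 and EIF5B, described below.

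eIF2B, the exchange factor that returns eIF2 to its GTP form, has 5 subunits, of which EIF2B1, EIF2B2 and EIF2B4 form the regulatory part and EIF2B3 and EIF2B5 the catalytic part. EIF2B1 (alpha) was at 23.7, 23.9 and 22.4 TPM for CON, 23.7, 23.3 and 25.9 for DDP, 35.2, 38.7 and 36.1 for TRF and 50.6, 45.9 and 44.0 for TRF_DDP. It rose in TRF against CON by 0.63 (95% interval 0.49 to 0.77; limma, adjusted p = 4.24e-06) and in TRF_DDP against DDP by 0.92 (0.77 to 1.06; limma, adjusted p = 1.03e-07). EIF2B3 (gamma), at 9.69 ± 1.10 TPM for CON (SD, n = 3) and 15.1 ± 1.76 for TRF, rose by 0.59 (limma, adjusted p = 2.28e-04), just past a fold of 1.5, and was not called against DDP (0.39). Its call was lost without CON replicate 3 (0.50), TRF replicate 2 (0.56), TRF replicate 3 (0.53) or the mitochondrially encoded genes (0.55). EIF2B2 (beta) rose only in TRF_DDP against CON among the 5 pairwise comparisons, by 0.67, from 66.6 ± 1.87 to 106 ± 7.02 TPM. EIF2B4 (delta) and EIF2B5 (epsilon, which holds the catalytic domain) were called in none, with differences from CON of 0.13 and -0.09 for TRF and 0.01 and -0.26 for TRF_DDP. The ratio of EIF2B1 to EIF2B5 accordingly went from 1.09 ± 0.0871 for CON (SD, n = 3) through 1.23 ± 0.0207 for DDP and 1.84 ± 0.184 for TRF to 2.65 ± 0.101 for TRF_DDP. EIF2A and EIF2D, which can deliver tRNA without eIF2, were called in no pairwise comparison, with differences of -0.14 and -0.36 in TRF against CON and 0.43 and -0.29 in TRF_DDP against DDP. On the opposite strand, EIF2B1 overlaps GTF2H3 (15.5 TPM) and DDX55 (14.0 TPM), and EIF2A overlaps SERP1 (131 TPM). Reads of these genes could be mixed.

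**Figure D2:**
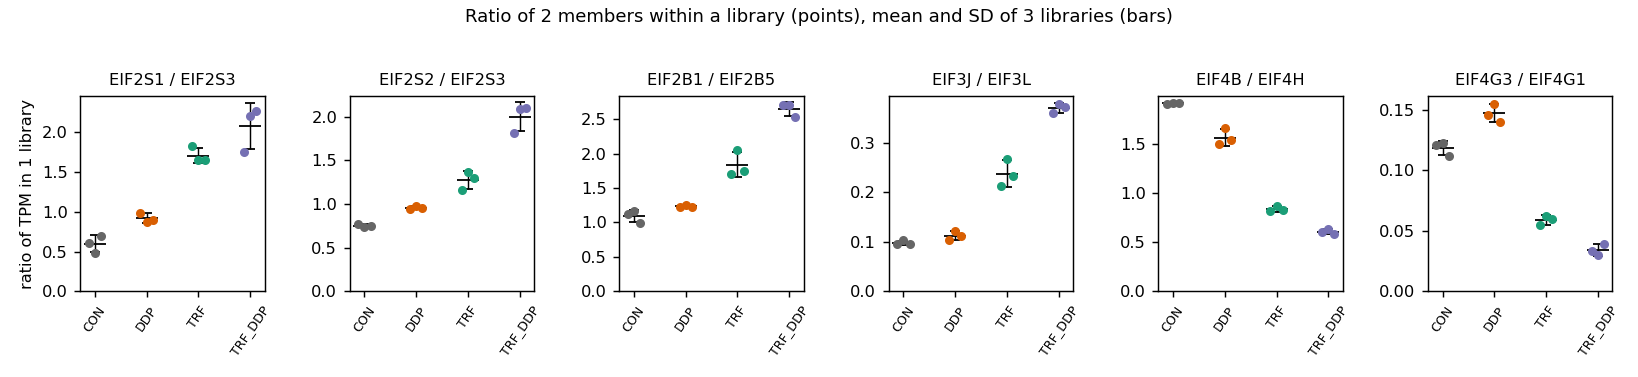
Ratio of the TPM of 2 members in each library (points) with the mean and SD of the 3 libraries of a group (bars), each panel on its own axis from 0. The ratios of EIF2S1 and EIF2S2 to EIF2S3, EIF2B1 to EIF2B5 and EIF3J to EIF3L are higher in the libraries with TRF than in those without, and EIF4B to EIF4H and EIF4G3 to EIF4G1 lower. The pairs were not fixed in advance, and the ratios restate the levels of their members.

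eIF3, the largest factor, is a scaffold of many subunits on the small ribosomal subunit, and 14 of its genes were tested. In TRF against CON, EIF3I and EIF3J rose and the other 12 were not called, with differences from -0.51 (EIF3L) to 0.50 (EIF3B). EIF3J, a loosely bound subunit that sits near the decoding site, was at 38.8, 40.9 and 36.4 TPM for CON, 37.2, 43.9 and 39.8 for DDP, 60.0, 73.5 and 63.2 for TRF and 89.8, 93.0 and 89.2 for TRF_DDP. The groups with and without TRF did not overlap, nor did TRF and TRF_DDP. It rose by 0.74 in TRF against CON (95% interval 0.57 to 0.91; limma, adjusted p = 5.08e-06) and by 1.15 in TRF_DDP against DDP (0.98 to 1.32; limma, adjusted p = 6.58e-08). EIF3J-DT, which starts beside it, had 5.33 ± 0.176 TPM for CON (SD, n = 3), 5.46 ± 0.278 for DDP, 4.83 ± 0.416 for TRF and 4.35 ± 0.534 for TRF_DDP and was not called.

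EIF3L, which with EIF3K forms a peripheral pair in the complex, was at 405, 399 and 378 TPM for CON, 360, 362 and 354 for DDP, 283, 275 and 270 for TRF and 250, 246 and 239 for TRF_DDP. Its 4 groups followed one another without overlap. EIF3L fell in TRF_DDP against CON by 0.68 on the log2 scale (95% interval -0.76 to -0.60; limma, adjusted p = 6.16e-09), and its differences of -0.51 in TRF against CON and -0.55 in TRF_DDP against DDP stayed under the fold limit. EIF3I, a beta-propeller subunit, was at 207, 199 and 210 TPM for CON, 208, 195 and 209 for DDP, 313, 294 and 323 for TRF and 328, 325 and 318 for TRF_DDP, and rose by 0.59 and 0.66 in the 2 TRF comparisons. The first call was lost without CON replicate 2 (0.57), TRF replicate 1 (0.58) or TRF replicate 3 (0.56), under quantile normalization (0.56) and without mitochondrially encoded genes (0.55), and the second in no alternative. EIF3B, the core scaffold, and EIF3D, which can bind the cap, were close to it without being called, at 0.50 and 0.49 in TRF against CON and 0.48 and 0.54 in TRF_DDP against DDP. EIF3E, EIF3H and EIF3A, at 287 to 328, 325 to 354 and 66.6 to 82.9 TPM over the group means, were called in no comparison. EIF3C and EIF3CL are nearly identical copies whose reads may be split between them, and neither was called. The 14 genes summed to 3398 ± 58.6 TPM for CON, 3326 ± 52.3 for DDP, 3652 ± 41.2 for TRF and 3650 ± 14.1 for TRF_DDP (SD, n = 3).

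Of the helicase eIF4A and its cofactors, EIF4B fell and the others were not called in a pairwise comparison. EIF4B, an RNA-binding protein that stimulates eIF4A and is phosphorylated by S6 kinase, was at 546, 542 and 552 TPM for CON, 450, 484 and 465 for DDP, 233, 243 and 236 for TRF and 195, 203 and 182 for TRF_DDP. The 4 groups did not overlap, and the highest library with TRF was far below the lowest without it. EIF4B fell by 1.20 on the log2 scale in TRF against CON (95% interval -1.29 to -1.11; limma, adjusted p = 5.41e-10), by 1.27 in TRF_DDP against DDP (-1.36 to -1.17; limma, adjusted p = 2.11e-10) and by 1.49 in TRF_DDP against CON. EIF4H, the other cofactor of eIF4A with a similar RNA-binding domain, was at 285 ± 2.36 TPM for CON, 298 ± 5.64 for DDP, 283 ± 4.49 for TRF and 319 ± 3.71 for TRF_DDP (SD, n = 3). The ratio of EIF4B to EIF4H was 1.92 ± 0.00676 for CON (SD, n = 3), 1.57 ± 0.0834 for DDP, 0.838 ± 0.0315 for TRF and 0.607 ± 0.0276 for TRF_DDP. EIF4A1 differed by 0.31 in TRF against CON and by 0.46 in TRF_DDP against DDP, both at an adjusted p under 0.05 in limma and under the fold limit. snoRNA genes lie inside EIF4A1 and EIF4A2, and a readthrough transcript with SENP3 covers EIF4A1.

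Among the cap binders, EIF4E2, a homologue of eIF4E that mostly represses translation, rose in TRF against CON by 0.59 (limma, adjusted p = 3.79e-05). It was at 112, 115 and 115 TPM for CON, 128, 106 and 141 for DDP, 179, 169 and 169 for TRF and 150, 161 and 150 for TRF_DDP, and the value against DDP, 0.30, was not called. The call in TRF against CON was lost without CON replicate 1 (0.58) or TRF replicate 1 (0.56), under quantile normalization (0.57) and without mitochondrially encoded genes (0.55). EIF4E itself was at 40.1, 43.6 and 41.6 TPM for CON, 33.8, 52.2 and 34.0 for DDP, 36.9, 46.4 and 49.0 for TRF and 42.6, 55.6 and 48.4 for TRF_DDP. All pairs of groups overlapped, and the difference was 0.07 in TRF against CON (95% interval -0.30 to 0.43) and 0.30 in TRF_DDP against DDP (-0.06 to 0.67). EIF4E3 and EIF4ENIF1, the eIF4E transporter, were low, at 2.04 to 3.18 and 9.61 to 13.1 TPM over the group means, and were not called.

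The scaffolds differed from each other. EIF4G3, which encodes eIF4GII and can replace eIF4GI in the cap complex, was at 21.5, 21.6 and 20.2 TPM for CON, 24.6, 24.8 and 24.6 for DDP, 11.0, 11.9 and 10.9 for TRF and 6.99, 6.47 and 7.64 for TRF_DDP. No 2 of the groups overlapped, with TRF_DDP the lowest and DDP the highest. EIF4G3 fell by 0.85 on the log2 scale in TRF against CON (95% interval -1.0 to -0.70; limma, adjusted p = 4.76e-07) and by 1.68 in TRF_DDP against DDP (-1.83 to -1.53; limma, adjusted p = 8.30e-10). EIF4G1, the main scaffold, was at 178, 176 and 180 TPM for CON, 168, 160 and 175 for DDP, 200, 191 and 183 for TRF and 209, 215 and 194 for TRF_DDP and was not called, with differences of 0.10 and 0.29. EIF4G2, a shortened scaffold that lacks the eIF4E-binding part and supports cap-independent initiation, was at 342, 346 and 340 TPM for CON, 334, 359 and 318 for DDP, 399, 443 and 384 for TRF and 509, 489 and 488 for TRF_DDP. Its differences of 0.25 and 0.56 in the 2 TRF comparisons stayed under the fold limit. The ratio of EIF4G3 to EIF4G1 was 0.118 ± 0.00555 for CON (SD, n = 3), 0.147 ± 0.00756 for DDP, 0.0590 ± 0.00398 for TRF and 0.0343 ± 0.00478 for TRF_DDP.

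EIF5, which activates the GTPase of eIF2 and also holds eIF2 in its GDP form, had the largest rise of the members in both TRF comparisons. It was at 96.0, 104 and 98.4 TPM for CON, 106, 110 and 101 for DDP, 230, 238 and 194 for TRF and 246, 292 and 294 for TRF_DDP. The lowest library with TRF lay above the highest without it, and TRF and TRF_DDP did not overlap. EIF5 rose by 1.14 in TRF against CON (95% interval 0.96 to 1.31; limma, adjusted p = 1.90e-07), by 1.38 in TRF_DDP against DDP (1.20 to 1.56; limma, adjusted p = 1.98e-08) and by 1.47 in TRF_DDP against CON. The ratio of EIF5 to EIF2S3, the GTPase subunit, was 0.976 ± 0.0512 for CON (SD, n = 3), 1.17 ± 0.0427 for DDP, 3.04 ± 0.180 for TRF and 4.09 ± 0.546 for TRF_DDP. EIF6, which keeps the large subunit from joining too early, was at 298, 314 and 327 TPM for CON, 368, 336 and 361 for DDP, 478, 481 and 513 for TRF and 516, 510 and 535 for TRF_DDP. It rose by 0.65 in TRF against CON (limma, adjusted p = 2.08e-07), and the 0.55 in TRF_DDP against DDP stayed under the fold limit. Under quantile normalization the first was 0.58 and not called. EIF5B, the GTPase of subunit joining, was at 18.1, 17.1 and 19.8 TPM for CON, 24.4, 30.2 and 27.6 for DDP, 19.6, 25.6 and 20.7 for TRF and 27.9, 30.5 and 29.4 for TRF_DDP. It was higher in the libraries with DDP than in CON, and rose in TRF_DDP against CON by 0.65 (limma, adjusted p = 1.00e-04). EIF5B overlaps TXNDC9 (60.9 TPM) and REV1 (9.79 TPM) on the opposite strand, so reads could be mixed.

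EIF5A and EIF5A2 encode the 2 forms of eIF5A, the substrate of hypusination, a modification made by DHPS and DOHH. EIF5A was at 845, 825 and 866 TPM for CON, 784, 731 and 786 for DDP, 1198, 1239 and 1319 for TRF and 1050, 1040 and 1058 for TRF_DDP. It was not called, with 0.57 in TRF against CON (95% interval 0.48 to 0.66), just under the fold limit. EIF5A2 was at 2.27, 1.91 and 1.71 TPM for CON, 2.85, 3.58 and 3.68 for DDP, 3.49, 2.84 and 2.54 for TRF and 5.23, 4.76 and 5.14 for TRF_DDP. Each single treatment lay above CON and the combination above both, and EIF5A2 rose in TRF_DDP against CON by 1.03 (0.77 to 1.29; limma, adjusted p = 8.31e-06), a value that the added pseudocount of 1 makes smaller at this level.

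**Figure D3:**
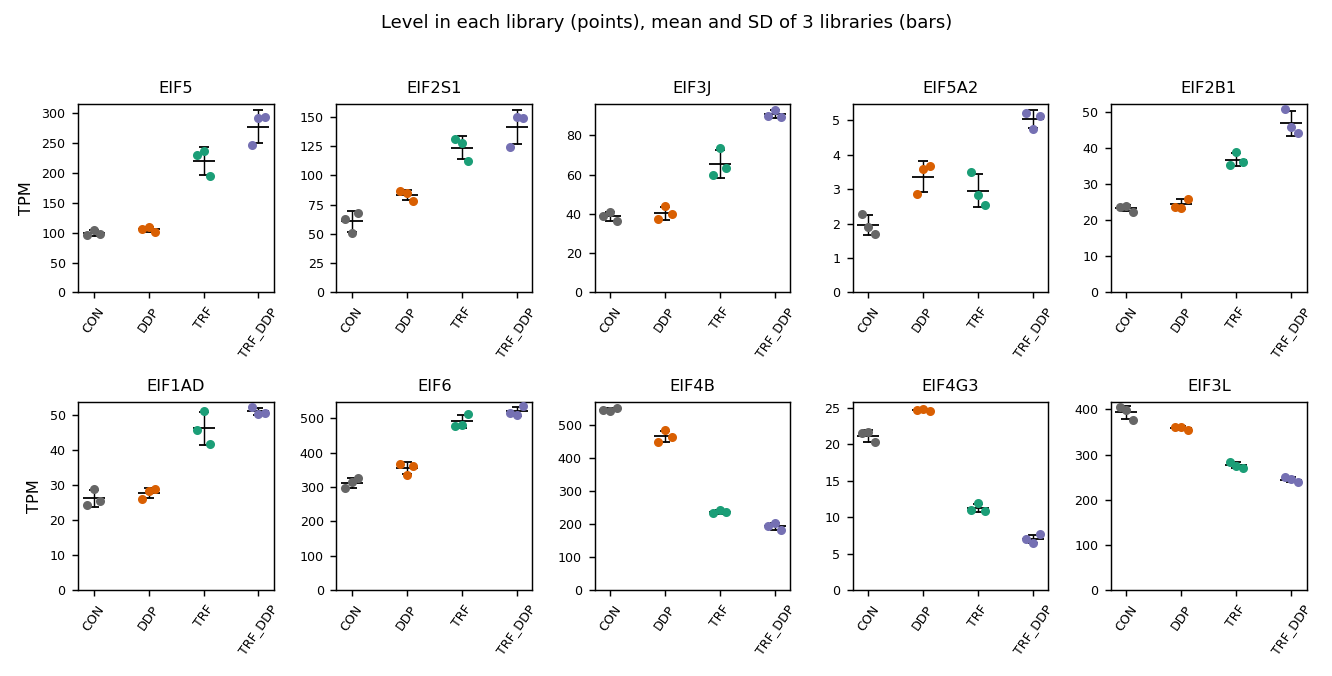
TPM of 10 members in each library (points) with the mean and SD of the 3 libraries of a group (bars), each panel on its own axis from 0. EIF5, EIF2S1, EIF3J, EIF2B1, EIF1AD and EIF6 are higher and EIF4B, EIF4G3 and EIF3L lower in every library with TRF than in every library without it, while EIF5A2 overlaps between DDP and TRF.

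DDP against CON asks what the drug does in normal medium. None of the 47 members was called, against 1.86% of all genes called higher and 0.159% called lower (2.01% in all). At an unadjusted p under 0.05 in limma, 7 members lay higher and 8 lower, where 3761 of the 13854 genes were under 0.05, a like share. At an adjusted p under 0.05 without a fold limit 4 lay higher (EIF2S1, EIF5A2, EIF5B and EIF6) and 7 lower (EIF3C, EIF3CL, EIF3L, EIF4A1, EIF4A3, EIF4B and EIF5A), against 10% and 2.17% of all genes. The libraries did not overlap for 10 higher and 10 lower members, against 25.7% and 8.89% of all genes. The largest of these differences were 0.56 for EIF5A2 (95% interval 0.30 to 0.82) and 0.55 for EIF5B (0.33 to 0.77), close to the fold limit. EIF5A2 was called higher with a pseudocount of 0.1 (0.75), without CON replicate 1 (0.63) and without DDP replicate 1 (0.65). EIF5B was called higher without CON replicate 3 (0.60) and without DDP replicate 1 (0.63). EIF4A1 differed by -0.18 (-0.24 to -0.12) and EIF4B by -0.23 (-0.32 to -0.14).

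TRF_DDP against TRF asks what the drug adds in cycled medium. EIF1AY and EIF5A2 rose and EIF4G3 fell, against 10.2% of all genes called higher and 6.1% called lower (16.3% in all). With no fold limit 16 members were higher and 6 lower, against 28.1% and 19.8%, and 18 higher and 10 lower members did not overlap, against 31.6% and 22.9%. EIF5A2 rose by 0.62 (95% interval 0.35 to 0.88; limma, adjusted p = 0.00119) and EIF4G3 fell by 0.61 on the log2 scale (-0.76 to -0.46; limma, adjusted p = 1.48e-05). The EIF4G3 call rested on 1 library of each group, with -0.57 without TRF replicate 2 and -0.56 without TRF_DDP replicate 2, and the EIF5A2 call on TRF replicate 3, with 0.54 without it. Under quantile normalization or the trimmed-mean scaling, EIF5A2 differed by 0.52 and 0.56 and was not called, and EIF1AY lost its call under both as well. Quantile normalization in turn called EIF5A2 higher in TRF against CON (0.65) and in TRF_DDP against DDP (0.70). Without it these differences were 0.41 and 0.47 and not called.

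In TRF_DDP against CON, 13 members rose and 3 fell, against 15.6% and 19.5% of all genes (35.1% in either direction), so 16 of 47 members is near the share of all genes. With no fold limit 27 were higher and 9 lower, against 31.9% and 35.3%, and 29 higher and 9 lower members did not overlap, against 34.7% and 37.9%. The members called lower were EIF4B, EIF4G3 and EIF3L. The members called higher were EIF5 (1.47), EIF2S1 (1.21), EIF3J (1.21), EIF5A2 (1.03), EIF2B1 (0.97), EIF1AD (0.94), EIF2S2 (0.82), EIF6 (0.73), EIF2B2 (0.67), EIF3I (0.65), EIF5B (0.65), EIF1AX (0.63) and EIF1AY. EIF1AX differed by 0.58 and was not called without TRF_DDP replicate 2. The comparisons of TRF and of TRF_DDP with CON share the CON libraries, so their values are given side by side and not as independent counts.

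The interaction asks whether the difference with DDP is the same in both media, coded as TRF_DDP minus TRF less DDP minus CON and called at an adjusted p under 0.05 alone. It was positive for 11 members and negative for 1, against 13.5% and 16.3% of all genes (29.8% in all). EIF4G3 had the largest of those called, -0.83 (95% interval -1.04 to -0.62; limma, adjusted p = 6.27e-05), from a difference with DDP of 0.22 in normal medium and -0.61 in TRF medium. EIF4A2, a paralogue of EIF4A1 that also acts in mRNA repression, was at 174, 176 and 165 TPM for CON, 152, 182 and 169 for DDP, 158, 187 and 148 for TRF and 244, 242 and 238 for TRF_DDP. CON, DDP and TRF overlapped and TRF_DDP lay above them all, and the interaction was 0.60 (0.35 to 0.84; limma, adjusted p = 0.00193). EIF4A3, the helicase of the exon junction complex rather than of initiation, was at 330, 297 and 291 TPM for CON, 264, 255 and 251 for DDP, 238, 268 and 301 for TRF and 331, 316 and 341 for TRF_DDP, with an interaction of 0.55 (0.32 to 0.77; limma, adjusted p = 0.00204). Its difference with DDP was -0.25 in normal medium and 0.30 in TRF medium.

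The other positive interactions were smaller. EIF1AX had 0.43, EIF3J 0.41, EIF2S2 0.38, EIF4G2 0.31 and EIF2B1 0.28, each with a difference with DDP between -0.10 and 0.18 in normal medium and between 0.28 and 0.56 in TRF medium. EIF1 was at 808, 845 and 871 TPM for CON, 799, 757 and 774 for DDP, 1059, 980 and 1057 for TRF and 1050, 1231 and 1112 for TRF_DDP, with an interaction of 0.24. EIF1B was at 60.0, 63.5 and 58.9 TPM for CON, 59.0, 61.9 and 59.4 for DDP, 69.2, 74.4 and 71.1 for TRF and 81.9, 82.1 and 79.4 for TRF_DDP, with 0.19. EIF4A1 was at 1253, 1249 and 1248 TPM for CON, 1118, 1109 and 1085 for DDP, 1540, 1523 and 1586 for TRF and 1533, 1523 and 1512 for TRF_DDP, with 0.15. In EIF4A1 the DDP libraries lay below CON, and in TRF medium the groups with and without DDP overlapped. The remaining call was EIF1AY. The calls of EIF1, EIF1B, EIF2B1 and EIF2S2 were close to the threshold. Leaving out 1 library took EIF1 past an adjusted p of 0.05 for 7 of the 12 libraries and each of the others for 8 of the 12, and each call was lost in 11 of 21 alternatives, which include analysis with no filter on low values. Over those alternatives the interaction of EIF1 was 0.18 to 0.30, of EIF1B 0.16 to 0.22, of EIF2B1 0.23 to 0.33 and of EIF2S2 0.31 to 0.48.

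**Figure D4:**
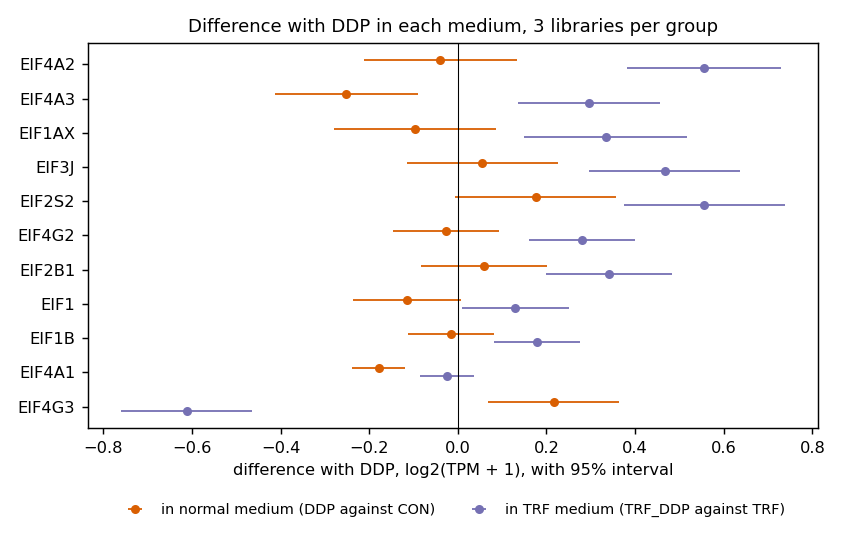
Difference in log2(TPM + 1) with DDP in normal medium (DDP against CON, orange) and in TRF medium (TRF_DDP against TRF, purple), with 95% intervals, for the members whose interaction was called other than EIF1AY. The purple point lies to the right of the orange one in every member except EIF4G3, where it lies at -0.61 against 0.22.

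The regulators of initiation and the later steps of translation were taken from lists chosen with earlier results of these data known. Of all genes tested, 8.41% were called higher and 17.1% lower in TRF against CON, and 11.8% and 21.4% in TRF_DDP against DDP. Of 15 tested genes of the cap-binding regulators and mTORC1 arm, 2 rose and 3 fell in TRF against CON, and 1 rose and none fell in TRF_DDP against DDP. EIF4EBP1, which encodes the eIF4E repressor 4E-BP1 and is no member because its symbol ends in P and a digit, was at 76.7, 82.2 and 81.0 TPM for CON, 82.9, 81.6 and 86.6 for DDP, 215, 219 and 211 for TRF and 156, 160 and 159 for TRF_DDP. It rose by 1.42 in TRF against CON (95% interval 1.33 to 1.5; limma, adjusted p = 6.27e-11) and by 0.91 in TRF_DDP against DDP (limma, adjusted p = 1.31e-09). The ratio of EIF4EBP1 to EIF4E was 1.91 ± 0.0331 for CON (SD, n = 3), 2.19 ± 0.542 for DDP, 4.95 ± 0.799 for TRF and 3.28 ± 0.389 for TRF_DDP. EIF4EBP2 was at 13.2 to 17.4 TPM over the group means and was called in no pairwise comparison, and EIF4EBP3 was under 1 TPM in all group means. RPTOR, the scaffold of mTORC1, rose by 0.86 in TRF against CON and fell by 1.40 on the log2 scale in TRF_DDP against TRF, from 28.9 ± 1.62 to 10.3 ± 0.472 TPM (SD, n = 3). PDCD4, an inhibitor of eIF4A, fell by 1.12, MKNK2, an eIF4E kinase, by 0.80, and RPS6KB1, S6 kinase, by 0.67 in TRF against CON, all on the log2 scale. RPS6KB1 was at 13.2, 23.4 and 12.7 TPM for TRF, with 1 library close to the CON range of 24.3 to 28.8 TPM.

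Of 12 tested genes of the eIF2 kinases and phosphatase, 1 fell in TRF against CON, and 1 rose and 2 fell in TRF_DDP against DDP. Of all genes, 25.6% and 33.2% were called in either direction in these comparisons. EIF2AK1, the kinase HRI, went from 53.7 ± 3.34 TPM in CON to 21.7 ± 1.77 for TRF (SD, n = 3) and fell by 1.27 on the log2 scale (limma, adjusted p = 5.58e-08), and by 1.13 in TRF_DDP against DDP. PPP1R15A, which encodes GADD34, the inducible subunit that directs a phosphatase to eIF2 alpha, was at 18.6 ± 0.162 TPM for CON, 21.8 ± 0.673 for DDP, 25.9 ± 1.47 for TRF and 85.8 ± 10.8 for TRF_DDP (SD, n = 3). It rose by 1.92 in TRF_DDP against DDP (limma, adjusted p = 7.71e-10) and by 1.68 in TRF_DDP against TRF, and was not called in TRF against CON. PPP1CB, a catalytic subunit, fell by 0.63 on the log2 scale in TRF_DDP against DDP.

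Of 12 scanning, reinitiation and ribosome-linked genes, 1 rose in TRF against CON, and 2 rose and 1 fell in TRF_DDP against DDP. The share of all genes called in either direction was 25.6% and 33.2%. BZW1, an eIF5 mimic, rose by 0.59 and 1.04 in these comparisons, ABCE1, which splits ribosomes for reuse, rose by 0.70 in the second, and CTIF, a scaffold of nuclear cap-bound initiation, fell by 2.10 on the log2 scale in the second. None of the 4 tested poly(A)-binding genes and none of the 5 termination genes was called in either, at an unadjusted p under 0.05 in limma for 3 and 2 genes in TRF against CON and for 2 and 1 in TRF_DDP against DDP. Among all 13854 genes, 8911 and 9469 were under 0.05 in these comparisons. Of 10 elongation genes, DOHH rose in both, by 0.76 and 1.39, EEF2, the translocase, fell by 0.65 on the log2 scale in TRF against CON, and EEF1E1 rose by 0.63 in TRF_DDP against DDP. Of 6 mitochondrial factors, GFM1, an elongation factor of the mitochondrial ribosome, rose in TRF_DDP against DDP by 0.62, and no other was called in these 2 comparisons. In TRF_DDP against CON, GFM2, another mitochondrial elongation factor, rose by 0.88, ETF1, the release factor, by 0.69, and RPS6KB2, an S6 kinase, by 0.63. In DDP against CON no gene of these lists was called, where 2.01% of all genes were.

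Promoters were read from RefSeq (GRCh38.p14) as 250 bases before to 50 after the annotated start, for the start of each gene that lies farthest upstream, and 40 of the 47 members had an entry. The E-box CACGTG, which reads the same on both strands and is bound by MYC and TFE3 among others, was in 10 of the 40 (25.0%), against 7.41% of 27326 genes and 10.2% of the 10073 tested genes with an entry. The 10 matches are shown with 10 bases on each side, the motif in capitals, since its share of the members differed most from that of all genes among the 4 motifs searched.
EIF1B, chr3:40309643-40309668, plus strand: gcgggacggtCACGTGggaggggccg
EIF2B3, chr1:44986759-44986784, minus strand: cagagggacaCACGTGtcgaatgctc
EIF3F, chr11:7987259-7987284, plus strand: agctctagctCACGTGgtgtatattc
EIF3K, chr19:38619075-38619100, plus strand: aggaagaagtCACGTGgcagccggaa
EIF4A3, chr17:80147234-80147259, minus strand: agttccctttCACGTGacgaagagtg
EIF4B, chr12:53006424-53006449, plus strand: ccgctataatCACGTGattgcctcat
EIF4E, chr4:98929190-98929215, minus strand: acatatccgtCACGTGgccagaagct
EIF4G1, chr3:184314529-184314554, plus strand: ctgcgccggtCACGTGggggcgccgg
EIF4H, chr7:74174147-74174172, plus strand: gccgccgcacCACGTGggctgcagag
EIF5A2, chr3:170908784-170908809, minus strand: gggcgctcttCACGTGactgggcgga

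They began 22 (EIF4B) to 199 (EIF4H) bases before the start. Of the members called in TRF_DDP against CON, 12 of those higher and 2 of those lower had a promoter entry, and EIF5A2 and EIF4B were the 1 of each with an E-box. TGATGNAA, the letters used for the ATF4 composite element on both strands, was in 0 of 40, against 3.67% of all genes and 1.41% of tested genes. Pairs of inverted heat shock units, TTCNNGAA and GAANNTTC, were in 3 (7.5%; EIF3F, EIF4G2 and EIF5B) and 2 (5.0%; EIF4A2 and EIF5), against 7.82% and 6.85% of all genes and 5.84% and 4.47% of tested genes. A match is a description of letters and not of binding, and the absence of one says only that the letters are not in this window.

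Many mRNAs of the translation machinery start with a C followed by a run of pyrimidines, the terminal oligopyrimidine motif through which mTORC1 and LARP1 act on translation and stability. A start of this kind, a C and then 4 pyrimidines at any annotated start, was chosen after the values were seen and found in 9 of the 40 members (22.5%), against 7.51% of the tested genes with an entry. The 9 are shown from 10 bases before the start to 15 from it, with the C and the 4 pyrimidines in capitals, because the member with the largest fall in TRF against CON, EIF4B, is among them.
EIF2A, chr3:150546777-150546801, plus strand: cgagcggtttCTCTTtccgggacaa
EIF2D, chr1:206612451-206612475, minus strand: ccagccgggcCCTTTtcgcggccgg
EIF2S3, chrX:24054946-24054970, plus strand: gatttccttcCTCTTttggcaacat
EIF3D, chr22:36529152-36529176, minus strand: cgcatgtttcCTCTTttcctggttt
EIF3F, chr11:7987327-7987351, plus strand: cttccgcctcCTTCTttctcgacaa
EIF3K, chr19:38619178-38619202, plus strand: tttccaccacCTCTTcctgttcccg
EIF3M, chr11:32583821-32583845, plus strand: gcccagttccCTTTTccggtcggcg
EIF4A2, chr3:186783567-186783591, plus strand: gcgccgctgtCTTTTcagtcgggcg
EIF4B, chr12:53006446-53006470, plus strand: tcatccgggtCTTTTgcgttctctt

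In TRF against CON, none of these 9 members was called higher and 1 was called lower, with a median difference of -0.10 and a range of -1.20 (EIF4B) to 0.49 (EIF3D). Of the 31 members without such a start, 9 were called higher and 1 lower, with a median of 0.30 and a range of -0.85 (EIF4G3) to 1.14 (EIF5). In TRF_DDP against DDP the counts were 0 higher and 1 lower of 9, with a median of 0.08, and 8 higher and 1 lower of 31, with a median of 0.45. Of all genes tested, 8.41% were called higher and 17.1% lower in the first comparison, and 11.8% and 21.4% in the second. Counts among 9 members are too few to set apart from these shares. How other tested genes with such a start behaved was not examined. No test is given for this split, which was made on the same data. An action of mTORC1 or LARP1 on these genes was not tested. Among the 9, EIF2S3 is the gamma subunit of eIF2 described above, and EIF2S1 and EIF5 are among the 31, as is EIF4G3, which fell. EIF3L and EIF2S2 had no promoter entry and are in neither group.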

How the data were processed

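Poly(A)-selected RNA of 12 libraries was sequenced, and the authors used SeqPrep and sickle to trim the reads, HISAT2 for alignment and StringTie for assembly. The tool that gave the values was not stated. The deposited table names no unit, and its values were taken as TPM per gene from the column sums. Its columns of group means were used only to check that they are those means. Tool versions, genome build, strand setting and depth were not stated, so the precision rests on the 3 libraries per group alone. Libraries were grouped by their titles. Genes averaging 1 TPM or more were fitted on log2(TPM + 1) with limma 3.58.1 (R 4.3.3; robust empirical Bayes with a mean-variance trend), with 1 mean per group over all 4 groups, and p-values were adjusted by Benjamini-Hochberg over 13854 genes. Calls required a fold over 1.5 at an adjusted p under 0.05, except for the interaction, which needed the adjusted p alone. Tables and figures were made with Python 3.11.15, pandas 2.3.3, numpy 2.4.6 and matplotlib 3.10.9. On simulated data with known changes in TRF_DDP against DDP, over 13854 genes, the procedure recovered 49, 48, 50 and 48 of 50 genes changed by 0.8, 1, 1.5 and 2 on the log2 scale and called 8 unchanged genes. The simulated noise was independent between genes, few genes changed, none of them lowly expressed, and libraries were not rescaled to a common total. The check therefore does not cover differences near the fold limit, the lowest members or the effect of scaling. Gene positions and overlaps came from GENCODE, and promoter sequences from RefSeq. The genes named were the members called anywhere, the others by factor, up to 4 called genes per related list and comparison, and the EIF4EBP genes. TOP-like starts were chosen after seeing the data, and the pairs set in ratios were not fixed in advance. The members and lists were chosen with earlier results of these data known. Alternatives covered normalization, filters, pseudocount, fold limit, replicate block and each library left out. The level and fold of EIF1AY are not reported here.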

Additional observations from a re-analysis of the deposited data

Results flagged for a closer look

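For 11 members besides EIF1AY the difference with DDP was not the same in TRF medium as in normal medium, by the interaction term of limma at a Benjamini-Hochberg adjusted p under 0.05. With EIF1AY, 12 of the 47 members were called, against 29.8% of all genes, so the count does not set the members apart. The difference was 0.60 for EIF4A2, 0.55 for EIF4A3, 0.43 for EIF1AX, 0.41 for EIF3J, 0.38 for EIF2S2, 0.31 for EIF4G2, 0.28 for EIF2B1, 0.24 for EIF1, 0.19 for EIF1B and 0.15 for EIF4A1, all on the log2(TPM + 1) scale and more positive in TRF medium. For EIF4G3 it was -0.83, more negative in TRF medium. Of the 12 members called in the interaction, EIF4A2 and EIF4G3 kept the call in every alternative run. Among those alternatives, 1 required a fold over 1.5, an outcome that the main estimate alone decides. EIF3J, EIF4A3 and EIF4G2 lost the call only there.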

How the results depend on the processing

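No member reversed direction while called. With no fold limit the members called were 11 in DDP against CON, 30 in TRF against CON, 36 in TRF_DDP against DDP, 22 in TRF_DDP against TRF and 36 in TRF_DDP against CON. The shares of all genes called without that limit are given above with each comparison. In DDP against CON a pseudocount of 0.1 gave 1 call (EIF5A2), and leaving out each replicate gave 0 to 2 (EIF5A2 and EIF5B). Over all genes, that pseudocount gave 366 higher and 30 lower, and leaving out each replicate gave 225 to 268 higher and 17 to 27 lower. In TRF_DDP against DDP trimmed-mean scaling gave 20 calls in place of 11, and in TRF_DDP against TRF both that scaling and quantile normalization gave 1 in place of 3. The interaction gave 7 calls in place of 12 with no filter on low values and 2 with a fold over 1.5 required. Over all genes these settings gave 1458 positive and 1837 negative of 31871, and 825 and 1020 of 13854. In limma without a mean-variance trend the interaction was positive for 7 members and negative for 1, against 1826 and 2172 of 13854 genes. The calls kept in every alternative were 11 of 11 in TRF_DDP against DDP, 15 of 16 in TRF_DDP against CON, 7 of 11 in TRF against CON and 0 of 3 in TRF_DDP against TRF. Scaling also moved the split of all genes. In TRF against CON 1165 were called higher and 2375 lower, against 1621 and 1858 after trimmed-mean scaling and 1625 and 1635 after quantile normalization. In TRF_DDP against DDP these were 1631 and 2968, 2122 and 2390, and 2179 and 2273, and in TRF_DDP against TRF 1413 and 845, 1169 and 1061, and 1049 and 1066.

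The labels give the same replicate numbers in each group, and whether same-numbered libraries share a culture round is unknown. Of 18 correlations between same-numbered libraries, taken on deviations from the group means and from -0.082 to 0.0795, 0 were over 0.1. In all, 2 libraries correlated best with their own number, which does not exclude shared rounds. With the replicate number as a block the members called were 0 in DDP against CON, 11 in TRF against CON, 11 in TRF_DDP against DDP, 3 in TRF_DDP against TRF, 16 in TRF_DDP against CON and 12 in the interaction. In the same order, 251, 1171, 1630, 1415, 2156 and 1821 of the 13854 genes were called higher. Those called lower were 23, 2373, 2960, 851, 2708 and 2250. EIF2B1 lost its interaction call under the block, with a limma adjusted p of 0.0543, and EIF2A gained one at 0.56 with 0.0134. EIF2A, not called otherwise, was also called in the interaction with trimmed-mean scaling, with at least 1 TPM required in every library, without DDP replicate 2 and without TRF replicate 2. Depth is unknown, and the lowest members, EIF4E3 and EIF5A2, have the least room above the pseudocount.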
